A study of Mus musculus with 8 samples.

Results

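MHC class II-high tumor macrophages were C1q-positive cells of mouse pancreatic tumors that carried many transcripts of the MHC class II gene H2-Ab1 and few of Spp1, Arg1 or Cd5l. They were chosen by a fixed gate on each cell barcode, in unique molecular identifiers (UMIs, the counted transcripts) per 10000 UMIs of that barcode. The gate asked for at least 10 for C1qa, C1qb and C1qc together, less than 20 for Krt8, Krt18 and Krt19 together, fewer than 3 of 5 cell cycle genes detected, Cd5l below 5, Spp1 below 20, Arg1 below 20 and H2-Ab1 of at least 40. Barcodes under 1500 UMIs or 200 genes, or above 10% mitochondrial UMIs, were left out. In all, 1319 of 9895 barcodes met the rule: 553 of 7618 from liver tumors and 766 of 2277 from primary tumors. The gate used measured values, so what follows on these cells against their neighbors is a description of how they look and not a test.

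The tumors grew from FC1242, a line of KPC pancreatic cancer cells, in C57BL/6 mice. Animals received 100000 cells either in the liver, as a model of metastasis, or in the pancreas, as the primary site, and tumors were taken at 3 weeks. Leukocytes sorted on CD45 gave 1 10x single-cell library from liver tumors and 1 from primary tumors, and whole tumors gave 3 bulk RNA libraries per site. The labels name no other genotype or treatment, nor how many animals a sorted library held; all tumors came from the same line, so other tumor genotypes were not sampled, and p-values from the bulk libraries measure the spread between those libraries only.

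Macrophages take up dying cells and debris, and some display peptides from that material on MHC class II, which helper T cells read. H2-Aa and H2-Ab1 encode the chains of the I-A class II molecule and H2-Eb1 a chain of I-E; Cd74, the invariant chain, escorts class II through the cell; H2-DMa and H2-DMb1 help load the peptide; and Ciita is the coactivator that switches the class II genes on. Interferon-gamma from T and NK cells induces Ciita, and it also induces Cxcl9 and Cxcl10, chemokines that attract T cells through CXCR3. C1q, the recognition protein of the classical complement pathway, is made largely by macrophages and is used here to find them.

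Class II promoters are known for a shared upstream element made of an X box, bound by RFX proteins, and a Y box, bound by NF-Y. The stretches of 150 bases before the RefSeq start sites (GRCm38.p6) of 3 class II genes that were high in these cells are shown so that the element can be seen; capitals mark every match to ATTGG (the Y box core) or AGNAACNG (a pattern for the X box) on either strand, a CCAAT match being ATTGG read on the other strand.
H2-Aa, chr17:34287824-34287973, minus strand: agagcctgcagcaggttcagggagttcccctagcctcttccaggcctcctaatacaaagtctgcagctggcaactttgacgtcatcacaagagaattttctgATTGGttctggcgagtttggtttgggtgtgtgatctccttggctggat
H2-Eb1, chr17:34305717-34305866, plus strand: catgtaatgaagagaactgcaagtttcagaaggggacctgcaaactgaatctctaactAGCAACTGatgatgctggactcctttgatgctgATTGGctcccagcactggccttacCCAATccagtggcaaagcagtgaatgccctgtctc
H2-DMb1, chr17:34153041-34153190, plus strand: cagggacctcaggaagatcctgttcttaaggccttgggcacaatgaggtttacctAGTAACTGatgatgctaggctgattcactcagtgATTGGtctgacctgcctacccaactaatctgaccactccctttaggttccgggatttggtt
H2-Eb1 and H2-DMb1 each held a match to both patterns, with the X box match upstream of the Y box match, and H2-Aa held a Y box match only. Of the 19 genes in the class II presentation list, 14 were in the promoter table, 10 of these 14 held ATTGG and 4 held AGNAACNG. Among all 32851 promoters of the same length, 24.5% held ATTGG, 8.79% held AGNAACNG and 2.05% held both. The 2 patterns do not overlap each other in these sequences; a match describes letters, and no binding was measured.

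The libraries held 161890665 UMIs from liver and 82083967 from primary tumors, and 12505 and 7490 barcodes with at least 1500 UMIs. The limits on genes and mitochondrial UMIs removed 4887 liver and 5213 primary barcodes. A total of 7 barcodes occurred in both libraries, of which 2 were MHC class II-high macrophages in each. Although the cells were sorted on CD45, keratin-positive barcodes outside the C1q-positive cells made up 3192 of the 7618 liver barcodes and 266 of the 2277 primary ones, against the label. Bulk totals lay between 27481390 and 36743247 reads. MHC class II-high macrophages had a median of 9519 UMIs and 2811 genes in the liver library and 14375.5 UMIs and 3504 genes in the primary library. Their summed depth was 5441017 UMIs in liver and 11712998 in primary, so levels in primary cells carry less counting error. With 1 library per site there was no replicate; levels are summed UMIs per 1000000 (CPM), and intervals (95%, exact) cover counting error only.

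Macrophage genes outside the gate were present in the members, while Cxcl9, 1 of the 4 marker genes, was detected in a minority of them. Cd74 was outside the gate but belongs to the same class II pathway as the gated H2-Ab1. It had a median of 178 UMIs per 10000 in liver members and 206 in primary members, and no member lacked it. Their C1q sum, which the gate set to at least 10, had a median of 141 in liver and 131 in primary. Of the members, 536 of 553 in liver and 754 of 766 in primary reached 30. Both Cd74 and C1q describe the gated cells and are no test of the label. Csf1r, the receptor for the growth factor CSF1, stood at 634 CPM in liver and 787 CPM in primary members. Adgre1, which encodes F4/80, stood at 178 and 259 CPM, and the phagocytic receptor Mertk at 91.3 and 225 CPM. The 19 macrophage identity genes summed to 23990 CPM in liver members, lower than in each other C1q-positive class, and to 28480 CPM in the other cells together. In primary they summed to 21128 against 20084 CPM. Barcodes gated on dendritic genes held 2782 and 1764 CPM. In members over other cells 12 of 19 lay above 1 in liver and 13 of 19 in primary, with medians of 1.05 and 1.06. Cxcl9 was not detected in 75.9% of liver members and 66.4% of primary members, so it describes some of these cells and not the class.

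Markers of other leukocytes were low in members, but those of dendritic and B cells were higher than in the other C1q-positive cells. The 20 dendritic cell markers summed to 284 CPM in liver members and 400 CPM in primary members, against 169 and 300 CPM in the other C1q-positive cells and 4536 and 3803 CPM in barcodes gated on dendritic genes. All 4 dendritic markers above 20 CPM lay above 1 in members over other cells in both libraries, with median folds of 1.62 in liver and 1.34 in primary. Flt3 stood at 2.39 and 2.56 CPM in members, against 183 and 206 CPM in those barcodes, and Siglech was at 0. The 13 B-cell markers summed to 96.3 CPM in liver and 68.9 CPM in primary members, against 53.2 and 44.4 CPM in the other cells. The 18 T and NK markers summed to 14.9 and 59.0 CPM in members, against 23.8 and 94.9 CPM. The 14 neutrophil markers summed to 216 CPM in liver and 82.3 CPM in primary members, against 459 and 322 CPM. Dendritic markers thus moved with the class II genes described next. B-cell markers did so against the other cells together, but were lower in liver members than in the liver low class. The part of both in the class II levels was not tested.

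Epithelial transcripts differed between the libraries. The 15 epithelial markers outside the gate summed to 1059 CPM in liver members and 75.6 CPM in primary members. Barcodes with fewer than 100 UMIs, which mostly hold free RNA, had 5907 CPM of these markers in the liver library and 889 CPM in the primary library. The other C1q-positive cells had 834 CPM in liver and 75.4 CPM in primary, so the difference was shared by macrophages outside the class.

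MHC class II-high cells made up 21.0% of C1q-positive cells in the liver library (553 of 2630, interval 19.5 to 22.6%) and 52.0% in the primary library (766 of 1472, interval 49.5 to 54.6%). They were the largest of the 6 gated classes in the primary library and the third largest in the liver library. Spp1-high cells took the first place in liver with 767 cells, 29.2%, and were 50 cells, 3.40%, in primary. Cells below all limits, called low here, were 634 in liver and 267 in primary; Arg1-high cells were 436 and 319, cycling cells 210 and 67, and Cd5l-positive cells 30 and 3. The labels do not say whether cells of a library came from 1 tumor or several, and with 1 library per site the site and the library cannot be told apart.

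**Figure D1:**
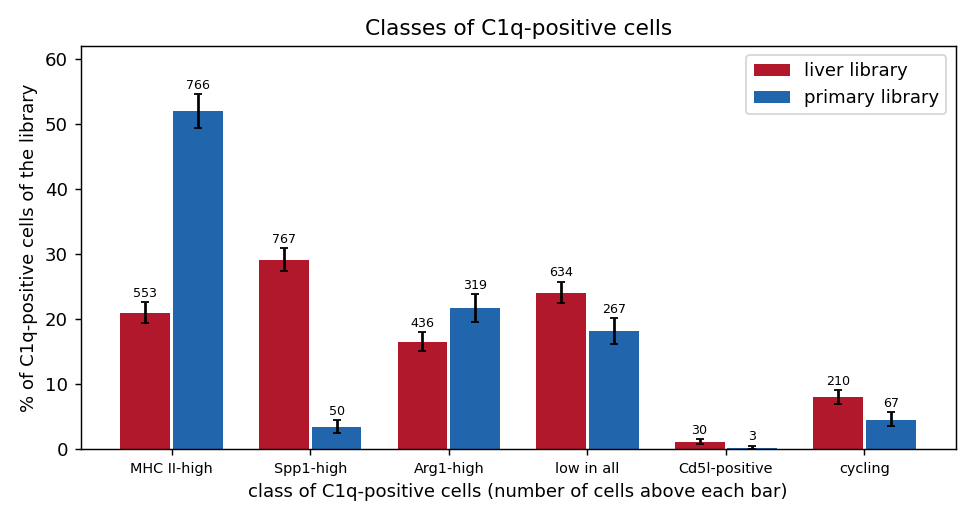
Share of each gated class among C1q-positive cells (%, y axis) in the liver library and the primary library; bars give the share, error bars the exact 95% binomial interval for counting error, and the numbers over the bars the cells. MHC II-high cells were 21.0% of the liver and 52.0% of the primary C1q-positive cells.

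The lower share in liver did not rest on the exclusion of Spp1-high and Arg1-high cells alone. Over all C1q-positive cells, whatever their class, 701 of 2630 liver cells (26.7%) and 934 of 1472 primary cells (63.5%) reached 40 for H2-Ab1, and the median was 14.5 in liver and 53.5 in primary. Among cycling cells, 11.4% of 210 in liver and 67.2% of 67 in primary reached 40. Among Arg1-high cells it was 12.2% of 436 and 37% of 319, and among Spp1-high cells 8.74% of 767 and 10% of 50. The low class, which by its definition holds no cell at 40 or more, had a median of 12.3 in liver and 25.8 in primary.

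H2-Ab1 did not fall into separate groups of cells at the limit. Just inside it, at 40 to 50, lay 99 liver and 105 primary members; just outside, at 30 to 40, lay 120 liver and 97 primary cells of the low class. Cells just inside had 13139 CPM of Cd74 in liver and 15751 CPM in primary, against 11473 and 13344 CPM just outside. Their Cxcl9 was 85.5 CPM in liver and 216 CPM in primary, against 18.3 and 92.7 CPM. The class is therefore a range of a continuous value. Moving the limit to 20 gave shares of 29.4% in liver and 63.7% in primary, and moving it to 80 gave 6.62% and 21.3%.

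**Figure D2:**
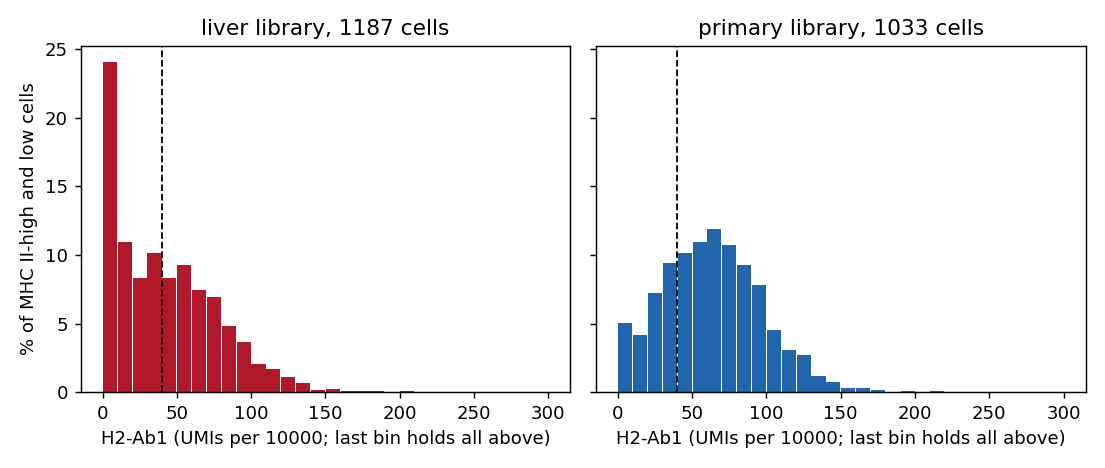
Distribution of H2-Ab1 (UMIs per 10000, x axis, bins of 10) over MHC II-high and low cells together, as % of those cells (y axis), for the 1187 cells of the liver library and the 1033 of the primary library; the dashed line marks the limit of 40. The largest liver bin is 0 to 10, while the largest primary bin is 60 to 70, above the limit.

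Against the other C1q-positive cells of the same library, 2077 in liver and 706 in primary, MHC class II-high macrophages had more class II machinery, more Cxcl9 and Ccl5, and less of a set of genes led by Saa3 and F13a1. Genes were compared where the mean of both groups was at least 20 CPM, leaving the 15 gate genes aside. In the liver library 84 of 5554 genes (1.51%) were at least 2-fold higher and 98 (1.76%) at least 2-fold lower. In the primary library 17 of 5697 (0.298%) were higher and 114 (2.0%) lower. These shares over all genes stand beside the counts of listed genes given below for the same comparison. In a setting chosen after seeing the data, C1q-positive barcodes that carried marker genes of other leukocytes were left out of both groups. They were 69 in liver and 65 in primary, of which 9 and 32 were members. Without them 83 genes were higher and 93 lower in liver, and 19 and 117 in primary. Of the 2415 genes at a mean of at least 50 CPM in both libraries, 5 were 2-fold higher in both and 29 were 2-fold lower in both. The 5 were Cxcl9, H2-Eb1, H2-Aa, Ciita and Ccl5.

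The class II genes moved with the H2-Ab1 gate. H2-Aa stood at 6298 CPM in liver members against 1401 CPM in other liver cells, and at 8129 against 3866 CPM in primary, 4.50-fold and 2.10-fold. H2-Eb1 stood at 5927 against 1120 CPM in liver and 6952 against 2929 CPM in primary. Cd74 was the most abundant of the list, at 18734 against 5056 CPM in liver and 21308 against 11226 CPM in primary. In each library the members were high; the gap was smaller in primary, where the other C1q-positive cells held more class II RNA than in liver. Ciita had 193 CPM in liver members (interval 182 to 205) against 35.9 CPM (33.7 to 38.3) in other liver cells, and 133 CPM (126 to 140) against 63.2 CPM (58.5 to 68.3) in primary.

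Of the 19 genes of the class II list, 12 passed the level minimum in liver and 7 of them were at least 2-fold higher, with a median fold of 3.14; in primary 3 of 11 were, with a median of 1.68. The median over all genes was 0.974 in liver and 0.980 in primary. The loading chaperones followed: H2-DMa stood at 975 against 339 CPM in liver and 796 against 473 CPM in primary, while H2-DMb1 stood at 789 against 230 CPM and 536 against 301 CPM. The proteases of the pathway did not follow. Ctss, cathepsin S, which trims the invariant chain, was at 1.32-fold in liver and 1.28-fold in primary, and Ctsl, cathepsin L, at 0.358-fold and 0.613-fold. Rfxap, a subunit of the RFX complex, was at 1.01-fold and 0.969-fold. MHC class I and antigen processing genes had a median of 1.28 in liver and 1.14 in primary, with 0 of 18 and 0 of 19 past 2-fold either way.

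Cxcl9 showed the largest fold of the 5 genes in both libraries. It stood at 260 CPM in liver members (246 to 274) against 36.8 CPM (34.6 to 39.2) in the other liver cells, and at 772 CPM (756 to 788) against 218 CPM (209 to 227) in primary. The folds were 7.06 in liver and 3.55 in primary. At an equal depth of 1500 UMIs per cell, 10.7% of liver members and 17.9% of primary members held a Cxcl9 UMI, against 3.32% and 8.07% of the other C1q-positive cells. T cells, which are not a known source, held one in 1.79% in liver and 0.87% in primary, and keratin-positive epithelial barcodes in 7.42% and 6.39%. The share in the other liver cells lay between those of liver T cells and epithelial barcodes, and that in the other primary cells above both of its references. Shares in members lay above both references in each library. The part of free RNA in these shares was not tested. Without thinning, the shares of members were 24.1% in liver and 33.6% in primary, at median depths of 9519 and 14375.5 UMIs.

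Other chemokines are given by the cells they are known to attract. Ccl5, which attracts T cells and monocytes, stood at 118 against 40.9 CPM in liver and 564 against 269 CPM in primary. Cxcl16, a ligand of CXCR6 on T cells, stood at 518 against 220 CPM in liver and 729 against 511 CPM in primary. Ccl17, which attracts CCR4-bearing T cells and is made by many dendritic cells, stood at 91.3 against 5.59 CPM in liver, 16.3-fold. In primary it stood at 28.9 against 2.73 CPM, and barcodes gated on dendritic genes held 1086 CPM in liver and 201 CPM in primary. Without thinning, only 45 of 553 liver members (8.14%) held a Ccl17 UMI, against 51 of 2077 other liver cells (2.46%). It thus describes a small part of the liver members and not the class. Cxcl10 was at 61.6 CPM in both groups of liver cells, and at 110 against 69.2 CPM in primary. Of the 10 listed T-cell attractants, 4 of 7 above the level minimum in liver and 2 of 6 in primary were at least 2-fold higher, and 1 in liver was lower. Of the myeloid list 6 of 10 chemokines were at least 2-fold lower in liver and 8 of 11 in primary, with medians of 0.339 and 0.357. Pf4, a platelet and macrophage chemokine, stood at 288 against 1656 CPM in liver and 273 against 906 CPM in primary. Ccl6 stood at 1249 against 4742 CPM in liver and 621 against 1566 CPM in primary, and Ccl7, a ligand of CCR2 on monocytes, at 112 against 380 CPM and 34.4 against 106 CPM. Ccl8, another monocyte attractant, lay above 1, at 1.21-fold in liver and 1.89-fold in primary.

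Most genes of the interferon-gamma response lay above 1, and a minority passed 2-fold. In liver 4 of 19 were at least 2-fold higher and 0 lower, beside 1.51% and 1.76% of all genes. In primary 1 of 23 was higher and 1 lower, beside 0.298% and 2.0%. Medians were 1.59 and 1.33, and 18 of the 19 and 22 of the 23 lay above 1. Gbp4, a guanylate-binding protein, stood at 55.9 against 15 CPM in liver and 84.7 against 53 CPM in primary. Nos2, inducible nitric oxide synthase, lay at 1.10 against 4.08 CPM in liver and at 16.4 against 55.8 CPM in primary, so it was low in members of both libraries. The type I interferon list lay on either side of 1, with a median of 0.839 over 20 genes in liver and 1.2 over 14 in primary.

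Of the chemokine receptors known on monocyte-derived cells, Cx3cr1 and Ccr2 were at higher levels in members. Cx3cr1, the fractalkine receptor, stood at 433 against 148 CPM in liver and 299 against 188 CPM in primary. Ccr2, which recruits monocytes from blood, stood at 745 against 361 CPM in liver and 279 against 200 CPM in primary, 2.06-fold and 1.39-fold. Against the low class alone Ccr2 was at 1.40-fold in liver and 3.19-fold in primary, so the order of the libraries turned with the cells it was set against. Of the monocyte list, Ccr2 included, 7 of 14 in liver and 5 of 12 in primary were at least 2-fold lower, beside 1.76% and 2.0% of all genes. In each library 3 of them lay above 1. At least 2-fold higher were 1 in liver, which was Ccr2, and 1 in primary, another gene at 2.14-fold. F13a1, a coagulation factor chain made by monocytes and macrophages, stood at 54.4 against 486 CPM in liver and 70.0 against 273 CPM in primary. Ly6c2, the marker of freshly recruited monocytes, was at 12.7 against 22.2 CPM in liver and 25.5 against 5.55 CPM in primary. Free RNA held 13.6 CPM of it in liver and 11.7 CPM in primary, so the liver level in members was no higher than in free RNA.

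The genes lowest in MHC class II-high macrophages in both libraries included acute-phase, heme-handling and surface protease genes. Saa3, an acute-phase serum amyloid protein, stood at 18.0 against 460 CPM in liver and 95.7 against 1200 CPM in primary. Hmox1, heme oxygenase, stood at 235 against 916 CPM in liver and 110 against 385 CPM in primary. Adam8, a surface protease, stood at 35.8 against 139 CPM and 44.4 against 162 CPM, Klf2, a transcription factor, at 55.1 against 192 CPM and 47.4 against 195 CPM, and the lectin Clec4d at 25 against 83.2 CPM and 30.9 against 90.4 CPM. Klf2 is on the list of genes known to respond to tissue dissociation, which moved the same way: 4 of 19 in liver and 0 of 19 in primary lay above 1, with medians of 0.789 and 0.658, and 1 and 3 were at least 2-fold lower. The part of dissociation in these levels was not tested. Of the lipid-associated list, 9 of 18 in liver and 5 of 17 in primary were at least 2-fold lower. Trem2, a lipid receptor that gives its name to such macrophages, was at 0.820-fold in liver and 0.768-fold in primary, and Apoe, the main lipid carrier, at 1.45-fold and 1.44-fold, so neither passed 2-fold. Gpnmb was at 57.3 against 324 CPM in liver and 14.7 against 50.4 CPM in primary. Genes of hypoxia and glycolysis had medians of 0.651 in liver and 0.570 in primary, and 2 of 22 and 7 of 23 were at least 2-fold lower.

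For 3 of the low genes the value depended on which cells they were set against. Stmn1, a microtubule regulator of dividing cells, was at 0.271-fold in liver and 0.180-fold in primary, and the cycling class, which the gate keeps out of the members, held 562 CPM of it in both libraries. Against primary cells other than cycling and Cd5l-positive ones its log2 fold was 0.079. Hbb-bs, a hemoglobin chain with a near-identical neighbor, was at 0.250-fold in liver and 0.00844-fold in primary; in primary the Arg1-high cells held 547 CPM and the low cells 0.932 CPM, and against the low cells its log2 fold was 1.14. Saa3 was at 0.450-fold against low cells in primary, where the 50 Spp1-high cells held 4129 CPM.

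**Figure D3:**
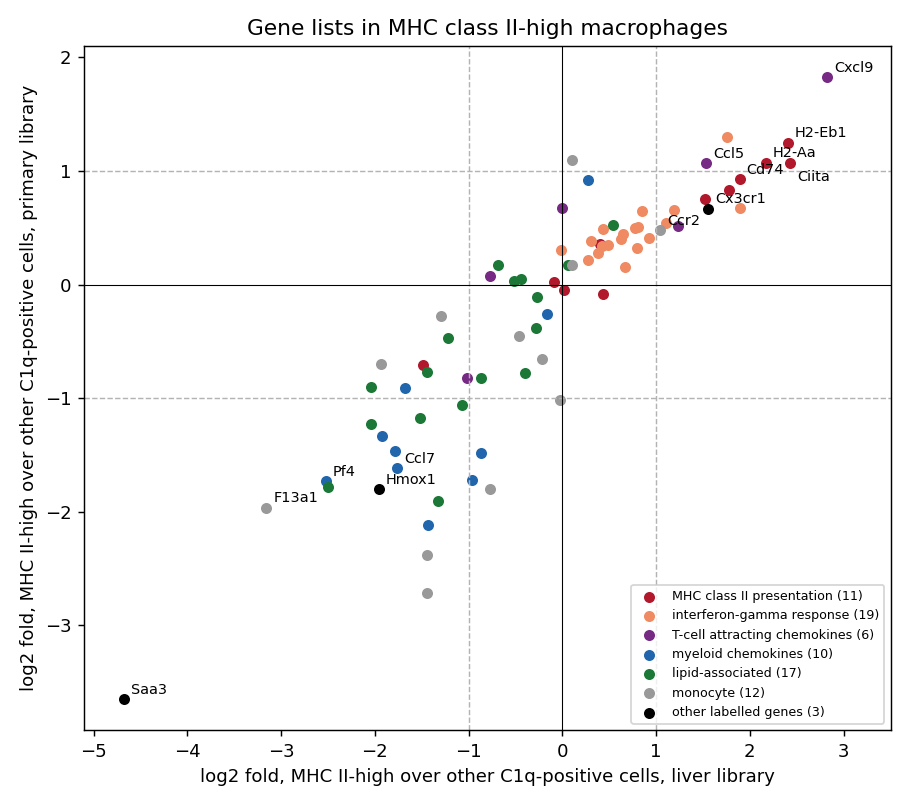
Log2 fold of MHC II-high over other C1q-positive cells in the liver library (x axis) and the primary library (y axis), 1 point per gene of 6 lists above the level minimum in both libraries, and 3 further labelled genes; dashed lines mark 2-fold. Cxcl9, Ccl5, Ciita, H2-Aa and H2-Eb1 lie past 2-fold at the upper right, and Saa3, F13a1, Pf4, Ccl7 and Hmox1 at the lower left.

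The other C1q-positive cells were a different mixture at each site, mainly Spp1-high and low cells in liver and Arg1-high and low cells in primary. Against the low class alone, 40 of 5543 genes (0.722%) were at least 2-fold higher and 41 (0.74%) lower in liver, and 34 of 5695 (0.597%) higher and 48 (0.843%) lower in primary. Among the lower genes were markers of other cell types that the low cells held: 4 of 4 erythroid and 4 of 5 neutrophil markers in liver, with median folds of 0.0782 and 0.179, and 12 of 12 acinar and 3 of 4 neutrophil markers in primary, with medians of 0.179 and 0.0370. Their part in the comparison was not tested. Cxcl9 was then at 3.39-fold in liver and 9.75-fold in primary, Ciita at 3.05-fold and 3.96-fold, and H2-Eb1 at 4.64-fold and 2.71-fold. The order of the libraries for Cxcl9 thus depended on the cells it was set against. Interferon-gamma response genes were at least 2-fold higher in 2 of 21 in liver and 7 of 21 in primary in that comparison, with medians of 1.26 and 1.77. F13a1 stayed low at 0.177-fold in liver and 0.358-fold in primary, Pf4 at 0.279-fold and 0.480-fold, and Hmox1 at 0.418-fold and 0.394-fold. Genes of hypoxia and glycolysis were at least 2-fold lower in 0 of 21 in liver and 2 of 23 in primary.

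Costimulatory and checkpoint ligands had medians close to 1 over the other cells, at 1.13 in liver and 1.19 in primary. At least 2-fold higher were 2 of 11 in liver and 0 of 12 in primary, beside 1.51% and 0.298% of all genes. Cd86, a ligand of CD28 on T cells, was at 1.30-fold in liver and 1.23-fold in primary. Cd274, which encodes PD-L1, stood at 40.8 against 36.1 CPM in liver and 166 against 174 CPM in primary, so its level differed by library and hardly by class. Tnfrsf14 encodes HVEM, the ligand of the inhibitory receptor BTLA. It stood at 3.68 against 2.13 CPM in liver and 3.84 against 5.55 CPM in primary, and Btla at 3.12 against 0.257 CPM (17 UMIs in liver members) and 1.28 against 0.974 CPM. Barcodes gated on dendritic genes held 128 CPM of Btla in liver and 238 CPM in primary. Cd200r1, an inhibitory receptor of myeloid cells, stood at 39.5 against 62.5 CPM in liver and 18.3 against 25.5 CPM in primary. Among scavenger genes, Mrc1, the mannose receptor, stood at 212 against 356 CPM in liver and 417 against 454 CPM in primary, and Folr2, a folate receptor of resident macrophages, at 7.54 against 44.9 CPM and 13.5 against 39.2 CPM.

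Within the class, cells with more H2-Ab1 had more Cxcl9. Members were binned by their own H2-Ab1 at 40 to 60, 60 to 90 and at least 90 UMIs per 10000, with 209, 227 and 117 cells in liver and 218, 330 and 218 in primary. Cxcl9 stood at 102, 156 and 768 CPM over these bins in liver, and at 296, 707 and 1312 CPM in primary. Ciita, the class II coactivator, stood at 148, 209 and 249 CPM in liver and 61.7, 132 and 200 CPM in primary. Csf1r was level, at 636, 612 and 673 CPM in liver and 795, 789 and 778 CPM in primary, and Mrc1 was lower in the upper bins, at 239, 218 and 149 CPM in liver and 535, 387 and 350 CPM in primary. Ccr2 was level in liver, at 694, 807 and 721 CPM, and lowest in the first primary bin, at 110, 337 and 350 CPM. Median depth was 9814, 9470 and 9161 UMIs in liver and 12952.5, 14370.5 and 15027 UMIs in primary.

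The top bin of the liver library also held dendritic-associated transcripts. Ccl17, a chemokine made by many dendritic cells, stood at 13.2, 29.0 and 365 CPM over the bins in liver and 8.77, 1.18 and 88.5 CPM in primary. Flt3, a defining dendritic receptor, stood at 1.88, 0.907 and 6.31 CPM in liver and 0.940, 1.97 and 4.95 CPM in primary, against 183 and 206 CPM in the gated dendritic barcodes. The setting without barcodes that carried marker genes of other leukocytes, dendritic cells among them, was not applied to these bins. The part of barcodes that mix a macrophage with a dendritic cell in these levels was therefore not tested.

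**Figure D4:**
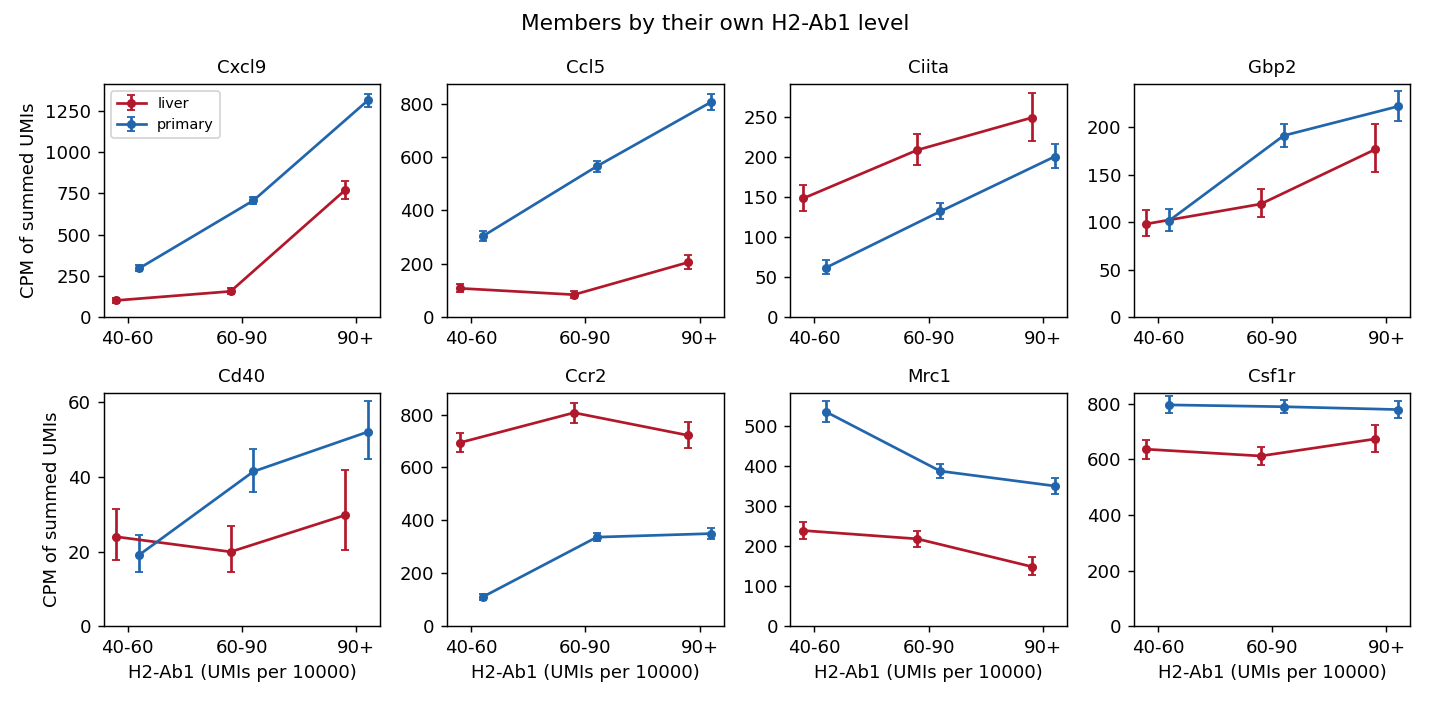
CPM of summed UMIs (y axis, starting at 0) of 8 genes in MHC II-high cells binned by their own H2-Ab1 (UMIs per 10000, x axis), in the liver library and the primary library; error bars are exact 95% Poisson intervals for counting error. Cxcl9 and Ciita are highest in the top bin of both libraries, and Csf1r is level.

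Members that held a Cxcl9 UMI were set against those without; the genes given were chosen after their values were seen. After thinning to 5000 UMIs, which left out 37 liver and 26 primary members, 99 of 516 liver and 192 of 740 primary members held one. Gbp2, an interferon-induced guanylate-binding protein, stood at 297 CPM in these liver members against 82.0 CPM in those without, and at 432 against 49.3 CPM in primary. Iigp1, an interferon-induced GTPase, stood at 115 against 24.9 CPM and 323 against 23.7 CPM. Ccl5 stood at 347 against 88.2 CPM in liver and 1371 against 271 CPM in primary, and Cd40, the receptor for the T-cell signal CD40L, at 46.5 against 17.7 CPM and 94.8 against 21.9 CPM. Cd274, also induced by interferon, had overlapping intervals, at 52.5 against 41.2 CPM in liver and 195 against 186 CPM in primary. Adgre1 differed little in liver, at 182 against 184 CPM. In primary it was higher with a Cxcl9 UMI, at 297 CPM (263 to 333) against 240 CPM (222 to 259). Ccr2 differed in sign, at 626 against 829 CPM in liver and 364 against 218 CPM in primary.

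Liver members were set against primary members to ask how the same gated class differed by site. Of 5623 genes at a mean of at least 20 CPM, 144 (2.56%) were at least 2-fold higher in liver and 283 (5.03%) at least 2-fold lower. The site differences were mostly shared with macrophages outside the class: 95 of the 144 and 240 of the 283 were past 2-fold the same way in the other C1q-positive cells. In free RNA 112 of the 144 and 80 of the 283 were. The share of all tested genes past 2-fold in the other cells or in free RNA was not counted, so these overlaps are a description only. No gene was past 2-fold one way in members and the other way in the other cells. A count of 977 tested genes was higher in free RNA than in members in at least 1 library; without them, a setting chosen after seeing the data, 65 genes were higher and 214 lower.

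Most of the genes highest in liver members are epithelial and were high in free RNA too. Tff1, a trefoil peptide of gastric epithelium, stood at 389 CPM in liver members and 20.8 CPM in primary members, 18.7-fold, while the ratio in free RNA was 7.85 and in the other C1q-positive cells 21.7. Tm4sf1, Wfdc2, Lgals4, Clu and Krt7 lay between 7.42-fold and 18.0-fold. The part of free tumor RNA in these levels was not tested. A further 3 genes are known in macrophages or monocytes. Ear2, an eosinophil-associated ribonuclease also found in monocytes, stood at 176 CPM in liver and 25.9 CPM in primary members, 6.80-fold, with 3.13 in free RNA. S100a6, a calcium-binding protein, stood at 2464 and 399 CPM, 6.18-fold, with 5.59 in free RNA. The monocyte list, which includes S100a6, summed to 32956 CPM in liver epithelial barcodes, 15293 CPM in liver free RNA and 5637 CPM in liver members. The part of free RNA in the S100a6 level was not tested. Lpl, lipoprotein lipase, stood at 222 and 36.3 CPM, 6.12-fold, with 4.01 in free RNA and 10.3 in the other cells. AY036118, a transcript without a known protein role, stood at 253 and 70.9 CPM.

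Several of the genes lowest in liver members are known as fast responders to stress, glucocorticoid or low oxygen. Ddit4, a stress-induced inhibitor of mTOR, stood at 6.98 CPM in liver and 126 CPM in primary members, 0.0555-fold, while the ratio in free RNA was 0.322. Vegfa, the vascular growth factor, stood at 16.7 and 172 CPM, 0.0970-fold, with 0.481 in free RNA. Il1r2, the decoy receptor for interleukin-1, stood at 29.4 and 265 CPM, and Dusp1, a MAP kinase phosphatase, at 61.0 and 526 CPM. Pde4b, Sik1, Nfil3, Fosl2, Arrdc3 and Per1 lay between 0.0646-fold and 0.147-fold. The other C1q-positive cells gave ratios between 0.0518 and 0.171 for these 10 genes, so liver was low in macrophages inside and outside the class. The list of genes known to respond to tissue dissociation had 4 of 20 at least 2-fold lower in liver members, beside 5.03% of all genes. Its median was 0.825 beside 0.977 for all genes, and its part was not tested.

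The class II genes themselves differed little by site within the class. The median over 12 list members was 0.851, and none was past 2-fold either way: H2-Aa was at 0.775-fold, Cd74 at 0.879-fold, H2-DMb1 at 1.47-fold and Ciita at 1.45-fold. Cells gated on a minimum of H2-Ab1 could differ in it only above that minimum. Of 7 T-cell attracting chemokines, 2 were at least 2-fold lower and 2 higher in liver members, beside 5.03% and 2.56% of all genes. Cxcl9 was at 0.336-fold (0.318 to 0.356) and Ccl5 at 0.210-fold (0.193 to 0.228). Ccl17, found in 8.14% of liver members without thinning, was at 3.17-fold. Interferon-gamma response genes had a median of 0.694 and type I interferon genes of 1.2. Ccr2 was at 2.67-fold (2.55 to 2.80), and 54.8% of liver members against 18.5% of primary members held a Ccr2 UMI at 1500 UMIs per cell. T cells held a Ccr2 UMI in 6.25% in liver and 1.74% in primary. Cd274 was at 0.246-fold, with a UMI in 6.15% of liver and 21.1% of primary members, and in 0 of 112 liver and 4.35% of primary T cells. Of 17 lipid-associated genes 9 were at least 2-fold higher in liver members and 1 lower, beside the same shares of 2.56% and 5.03%. Their median was 2.02. The 19 genes of that list outside the gate summed to 40599 CPM in liver and 34658 CPM in primary members. In the other C1q-positive cells they summed to 38560 and 27547 CPM, so the sum was higher in liver outside the class too. Trem2 stood at 554 CPM in liver and 274 CPM in primary members. Gpnmb was at 3.90-fold, with 3.75 in free RNA.

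Bulk RNA-seq of whole tumors was not used by the gate and had 3 libraries per site, so it was tested with edgeR's quasi-likelihood test, two-sided, with Benjamini-Hochberg adjustment over 16487 genes. At an adjusted p below 0.05, 2755 genes (16.7%) rose in liver tumors and 1032 (6.26%) fell. The count that fell was 134 without liver replicate 2, 414 without liver replicate 1 and 606 without primary replicate 3, and the count that rose was 1810 without liver replicate 2. A bulk level joins the number of cells and the RNA per cell, which cannot be told apart, and it covers all cells of the tumor and of any tissue around it.

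Class II genes were higher in bulk liver tumors. H2-Ab1 had 317, 328 and 327 CPM in liver tumors and 138, 132 and 123 CPM in primary tumors, and every liver library lay above every primary one. Its log2 fold change was 1.31 (SE 0.18), with an edgeR adjusted p of 0.00139. H2-Aa rose by 1.27, with an adjusted p in edgeR of 0.00202, and H2-Eb1 by 1.27, with 0.00135. Cd74 had 592, 681 and 643 CPM in liver tumors and 260, 377 and 202 CPM in primary tumors, log2 fold change 1.19 (SE 0.27), edgeR adjusted p 0.0166; the call was lost without liver replicate 2 (adjusted p 0.0700), primary replicate 1 (0.0547) or primary replicate 3 (0.0640). Ciita had 12.8, 27.9 and 26.8 CPM in liver tumors and 7.01, 5.23 and 3.38 CPM in primary tumors, log2 fold change 2.11 (SE 0.39), adjusted p 0.00598 in edgeR. Of the 19 class II list genes 12 rose and none fell, and their median log2 fold change was 1.27, beside -0.07 over all genes.

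The bulk direction was opposite to the order of the single-cell shares, where H2-Ab1 was lower among liver C1q-positive cells. Among markers of other cell types in bulk liver tumors, 9 of 13 B-cell and 13 of 20 dendritic markers rose, 0 and 1 fell, with median log2 fold changes of 3.14 and 1.37. Cd79a, a B-cell receptor chain, had 1.36, 2.25 and 1.10 CPM in liver tumors and 0.0738, 0.0693 and 0.0746 CPM in primary tumors. All 17 hepatocyte markers rose, with a median log2 fold change of 10.69. Of the Kupffer and resident macrophage list 15 of 17 rose and 0 fell, with a median of 2.97. Of the perivascular and scavenger list 13 of 19 rose and 1 fell, with a median of 2.33. Fibroblast or endothelial markers rose in 9 of 12 and fell in 0, while epithelial markers rose in 0 of 18 and fell in 4. These counts stand beside 16.7% of all genes that rose and 6.26% that fell. How much each cell type gave to the bulk class II level was not tested.

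Of the macrophage genes, C1qa, C1qc, Csf1r and Adgre1 rose in bulk liver tumors and C1qb did not pass. C1qa had 172, 138 and 130 CPM in liver tumors and 83.8, 108 and 62.9 CPM in primary tumors, log2 fold change 0.79 (SE 0.24), edgeR adjusted p 0.0495. That call was lost in each fit without 1 library except the fit without primary replicate 2, with an adjusted p of up to 0.150. C1qc had a log2 fold change of 0.97 with an edgeR adjusted p of 0.0425, and this call was lost in the same 5 fits. C1qb had a log2 fold change of 0.80 with an edgeR adjusted p of 0.0884. Csf1r had 108, 123 and 92.9 CPM in liver tumors and 33.2, 48.8 and 24.3 CPM in primary tumors, log2 fold change 1.61 (SE 0.27), edgeR adjusted p 0.00400. Adgre1 had 31.1, 47.3 and 40.8 CPM in liver tumors and 12.2, 15.9 and 9.82 CPM in primary tumors, log2 fold change 1.66 (SE 0.25), edgeR adjusted p 0.00232.

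Of the 5 genes that were higher in members of both single-cell libraries, 4 rose in bulk liver tumors and Ccl5 did not pass. Cxcl9 had 77.9, 39.8 and 47.7 CPM in liver tumors and 14.6, 15.1 and 21.4 CPM in primary tumors, log2 fold change 1.69 (SE 0.29), edgeR adjusted p 0.00454. In MHC class II-high cells the same gene was at 0.336-fold in liver over primary. Ccl5 had 7.92, 7.03 and 5.33 CPM in liver tumors and 6.42, 9.25 and 6.61 CPM in primary tumors, and the groups overlapped. Its log2 fold change was -0.14 (SE 0.28), with an edgeR adjusted p of 0.764. Of the interferon-gamma list 19 of 28 rose and 1 fell, and of the T-cell attracting chemokines 4 of 10 rose and none fell. Over all genes 16.7% rose and 6.26% fell.

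Of the 29 genes that were lower in members of both single-cell libraries, 4 rose and 7 fell in bulk liver tumors, beside 16.7% and 6.26% of all genes. Their median log2 fold change was -0.34, beside -0.07 over all genes. The share of all genes that fell depended on liver replicate 2 as given above. F13a1 had 2.29, 3.45 and 5.27 CPM in liver tumors and 17.3, 19.9 and 6.96 CPM in primary tumors, log2 fold change -1.99 (SE 0.46), edgeR adjusted p 0.0177. Without liver replicate 1 or liver replicate 2 the adjusted p was 0.0670 and 0.0844. Saa3 had 29.3, 10.1 and 15.1 CPM in liver tumors and 10.3, 15.2 and 7.56 CPM in primary tumors, with overlap and an edgeR adjusted p of 0.254. Hmox1 had an edgeR adjusted p of 0.863 and Pf4 one of 0.229. Without primary replicate 2 Hmox1 rose by 0.67 on the log2 scale, with an edgeR adjusted p of 0.0249. Ccr2, higher in liver members, had 25.3, 46.4 and 40.7 CPM in liver tumors and 10.5, 4.68 and 9.38 CPM in primary tumors, log2 fold change 2.19 (SE 0.36), edgeR adjusted p 0.00334. Cx3cr1 overlapped between sites, with a log2 fold change of 0.25 (SE 0.33) and an edgeR adjusted p of 0.617. Cd274, lower in liver members, overlapped as well, with a log2 fold change of 0.45 (SE 0.28) and an edgeR adjusted p of 0.284. Mrc1, at 0.509-fold in liver members, rose in bulk, with 57.5, 86.1 and 56.6 CPM in liver tumors and 29.4, 28.9 and 16.5 CPM in primary tumors and an edgeR adjusted p of 0.00867. Btla rose with an edgeR adjusted p of 0.00653, and Tnfrsf14 and Cd200r1 did not pass, at 0.0834 and 0.0565.

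**Figure D5:**
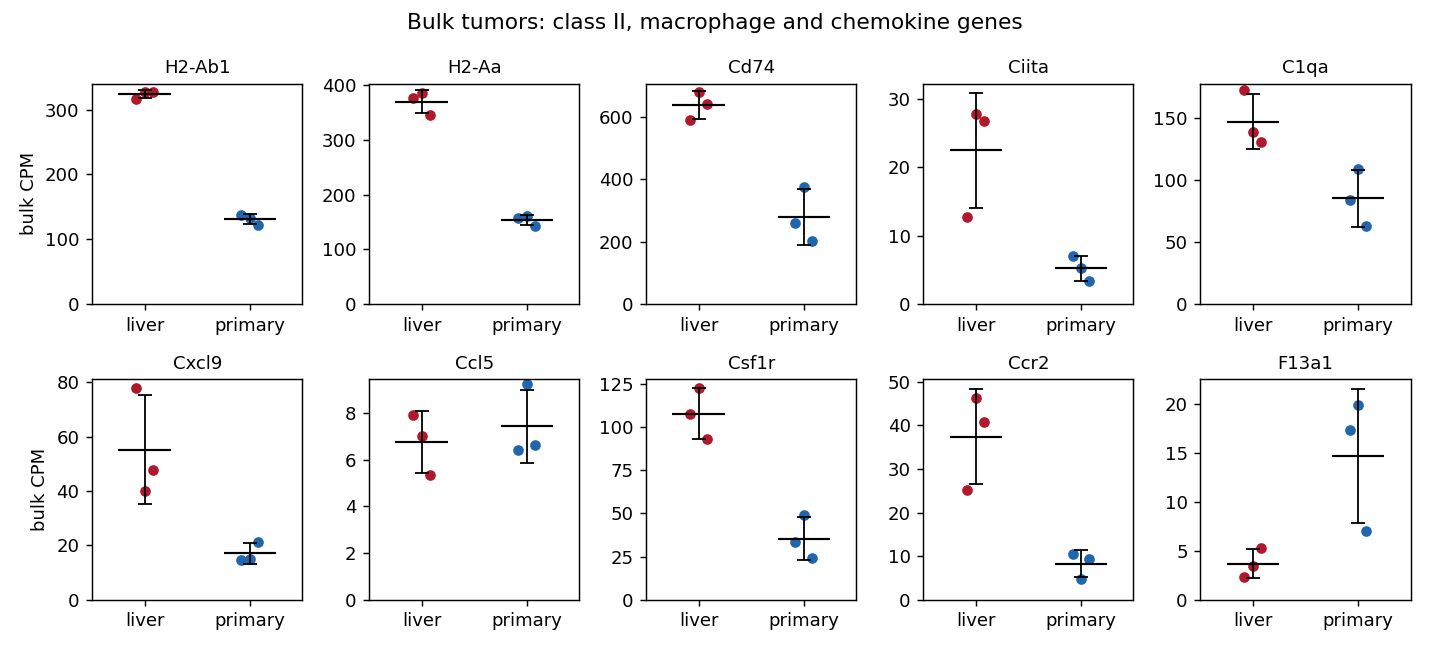
Bulk CPM (y axis, starting at 0) of 10 genes in 3 liver and 3 primary tumors; points are libraries, long lines means and error bars SD (n = 3 each). H2-Ab1 and H2-Aa do not overlap between sites and lie higher in liver tumors, Ccl5 overlaps, and F13a1 is lower in liver tumors.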

How the data were processed

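Per the file headers and values, the authors deposited single-cell UMI counts for all 6794880 barcodes of each library, and bulk tables of raw read counts and FPKM. Per the submitters' processing notes bcl2fastq, Cell Ranger and mm10 were used; the bulk aligner is not given in the sources used here, and the matrix header names software version 3.0.0. Matrices were read with scipy 1.17.1 (Python 3.11.15), gated as described, summed per class and given as CPM; 3 UMIs stood in for 0 in folds. Epithelial, neutrophil, T and dendritic barcodes were gated on keratins, S100a8 and S100a9, Cd3 genes, and Flt3, Xcr1, Clec9a, Zbtb46, Cd209a, Fscn1 and Ccr7. Scrublet marked 1 of 7618 and 5 of 2277 barcodes, too few to use, so doublets were not removed. Bulk counts were fitted in edgeR 4.0.16 (TMM, filterByExpr, group only). The 28 gene lists, the members and the tests were chosen with earlier results of these data known. Named genes were the 10 most extreme each way that passed 2-fold in both libraries, the 10 most extreme each way by site at a mean of at least 50 CPM, a fixed set, and the 3 most abundant of each list; other list genes were named after their values were seen. DESeq2 1.42.0 and limma 3.58.1, on log2(FPKM + 1), served as alternatives.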

Additional observations from a re-analysis of the deposited data

Results flagged for a closer look

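There were 2 genes that differed by at least 1.5-fold in opposite directions in the 2 libraries when MHC class II-high macrophages were set against other C1q-positive cells; the difference was not tested, since there was 1 library per site. Rsad2, an antiviral gene of the type I interferon response, was at 0.275-fold in liver, 14.5 CPM in members against 52.8 CPM in other cells, and at 1.79-fold in primary, 26.4 against 14.7 CPM. It rested on 79 UMIs in liver members and 309 in primary members, and neutrophil barcodes of the primary library held 419 CPM. Htra3, a secreted protease, was at 1.95-fold in liver, 43.6 against 22.3 CPM, and at 0.643-fold in primary, 28.0 against 43.5 CPM.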

How the results depend on the processing

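The share of members moved beyond its counting interval with the H2-Ab1 minimum (29.4% liver and 63.7% primary at 20, 6.62% and 21.3% at 80) and, in primary, at a mitochondrial limit of 5% (47.2%); in each of these it stayed lower in liver. Against low cells alone the counts past 2-fold were 40 higher and 41 lower in liver and 34 and 48 in primary, against others without cycling and Cd5l-positive cells 34 were higher in primary, and at an H2-Ab1 minimum of 80, 152 were lower in liver. At a mean of at least 5 CPM they were 175 higher and 206 lower in liver, 51 and 265 in primary, and 380 and 486 by site. Without genes higher in free RNA, 65 were higher by site. Of the named genes, 50 of 550 single-cell values moved by over 0.5 on the log2 scale and 2 changed sign: Hbb-bs at 1.14 in primary against low cells, and Stmn1 at 0.079 in primary without cycling and Cd5l-positive cells.

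Leaving out 1 bulk library gave 1810 to 3346 higher and 134 to 1468 lower genes; the fewest lower, 134, came without liver replicate 2, then 414 without liver replicate 1 and 606 without primary replicate 3. Pairing libraries by number (replicate block) gave 2703 higher and 873 lower genes, although same-numbered libraries shared only a number (correlations of deviations -0.20, 0.28 and 0.10). Hmox1 had a log2 fold change of 0.11 with the replicate block and 0.11 in limma. Over fits without 1 library it ranged from -0.41 to 0.67, Ccl5 from -0.28 to 0.053 and Trem2 from -0.56 to 0.012, each changing sign only without primary replicate 2. In that fit Hmox1 passed, with an edgeR adjusted p of 0.0249, while Ccl5 (0.896) and Trem2 (0.978) did not. Of the other values of named bulk genes, 372 kept their call, 22 lost it and 19 gained it. Scrublet removal was not run. Free RNA, the single library per site and shallow counts for Btla, Tnfrsf14, Ly6c2 and Nos2 limit what can be read.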

Other observations

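Lysosomal and cathepsin genes were near the other C1q-positive cells, with medians of 0.894 over 22 genes in liver and 1.03 in primary, and 2 and 0 were at least 2-fold lower; Cst3, cystatin C, a protease inhibitor abundant in antigen-presenting cells, was at 1.57-fold and 1.35-fold, while Ctsd, cathepsin D, was at 0.369-fold and 0.587-fold. Of matrix and protease genes, 6 of 13 in liver and 5 of 14 in primary were at least 2-fold lower. Fn1, fibronectin, stood at 631 CPM in liver members against 1715 CPM in other liver cells, and at 300 against 1558 CPM in primary.

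Mgl2, a C-type lectin of macrophages and dendritic cells, stood at 109 against 24.2 CPM in liver and 117 against 84.7 CPM in primary. Itgax, which encodes CD11c, stood at 164 against 64.5 CPM in liver and 179 against 111 CPM in primary, and in bulk it rose in liver tumors by 1.11 on the log2 scale (SE 0.21, edgeR adjusted p 0.00690). Id3, a regulator of Kupffer cells, stood at 54.0 CPM in liver members and 1.45 CPM in primary members, against 38.8 and 2.44 CPM in the other cells. Mgl2 and Itgax were chosen after their values were seen.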
